A study of Mus musculus with 8 samples.

Results

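The genes described here are 35 mouse genes of fatty acid oxidation, ketone body formation and the response to PPARA, measured in liver RNA. They were taken as a list of gene symbols, matched to Ensembl identifiers of the deposited count table, and divided by the place of the reaction: 19 mitochondrial genes, of which 4 belong to the carnitine shuttle and its acyltransferases, 8 peroxisomal genes, 3 microsomal genes, 1 ketogenic gene and 4 others, PPARA itself and 3 of its targets. All 35 were among the 17669 genes that passed the filter on low counts and were tested, of 55401 identifiers listed. The livers came from NOD scid gamma (NSG) mice, an immunodeficient strain that lacks mature T, B and natural killer cells and keeps myeloid cells. Each mouse carried a subcutaneous xenograft of a human colorectal cancer cell line, either Colo201, given by the series as expressing much FGF19, or HCT116, given as expressing little. There were 4 libraries per line, titled 2L, 2R, 4L and 4R for Colo201 and 1L, 1R, 3L and 3R for HCT116. Numbers 1 and 2 are labelled male, and 3 and 4 female. The labels give no age for the mice. No tumour-free host was among the samples, and neither line was studied at more than 1 level of FGF19, so FGF19 and other differences between the tumours cannot be told apart. Whether L and R under a number are 2 animals is not stated. The p-values thus reflect only how far these libraries differ among themselves, which may be technical.

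The libraries held 61347603 to 65457482 estimated counts. The 12 hepatocyte markers together took 132900 to 196600 CPM (counts scaled to the library total), so the tissue matched its label. The sex labels did not match sex-linked expression in any of the 8 libraries. Xist, the RNA of the inactive X chromosome, had 253 to 366 CPM where the label is male and 0.276 to 0.805 CPM where it is female, and 4 Y-linked genes reached at most 0.0742 CPM in the former and 9.06 to 63.5 CPM in the latter. Sex is therefore written only as labelled. Colo201 4R stood apart in Krt19, at 25.9 CPM (0.501 to 2.17 in the other 7 libraries), Epcam, at 12.0 CPM (0.851 to 1.42), and Cldn7, at 4.97 CPM (0.323 to 0.866). These were picked by their values from 10 listed markers of bile duct cells. The whole list did not set 4R apart, with a sum of 85.8 CPM there, 74.2 CPM in Colo201 2R and 68.1 CPM in Colo201 4L. The summed Kupffer cell, endothelial and neutrophil markers were lowest in Colo201 4R. Colo201 4R was also the lowest library for Ehhadh, Acaa1b, Ppara and Cyp4a14, and results are given below without it too.

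Fatty acids enter mitochondria as carnitine esters and are shortened there by repeated dehydrogenation, hydration, a second dehydrogenation and thiolysis. Peroxisomes shorten very long and dicarboxylic chains, and microsomal Cyp4a enzymes make the dicarboxylic acids by hydroxylating the far end of the chain. In liver much of the acetyl-CoA becomes ketone bodies. PPARA is a nuclear receptor that binds fatty acids, pairs with RXR on repeats of AGGTCA and raises many of these genes in fasting. FGF19 is an intestinal hormone released after meals that acts on hepatocytes through FGFR4 and Klb.

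Levels between genes were compared on the FPKM scale of the authors, which divides by gene length. The mitochondrial thiolase Acaa2 was the most abundant, at 580 ± 27.3 FPKM in hosts of Colo201 and 595 ± 11.7 FPKM in hosts of HCT116 (SD, n = 4 each, as for all values by line). The peroxisomal thiolase Acaa1b was second, at 302 ± 42.9 and 511 ± 67.9 FPKM. Slc27a2, which activates very long chain fatty acids, followed at 299.9 ± 40.2 and 378 ± 35.9 FPKM. A mitochondrial thiolase thus led in both lines, while Acaa1b and Slc27a2 did not differ beyond their spread in hosts of Colo201. The electron transfer flavoprotein subunits Etfb and Etfa came next, with 203 and 173 FPKM over all 8 libraries. Ppara stood at 12.7 FPKM over all libraries, and 4 members lay below 5 FPKM: Cyp4a31 (4.47), Acot2 (3.82), Acot1 (3.69) and Pdk4 (0.965). Spread within a line was small for most mitochondrial enzymes and large for Cyp4a14, at 76.3 ± 75 FPKM in hosts of Colo201 and 179 ± 158 FPKM in hosts of HCT116.

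**Figure D1:**
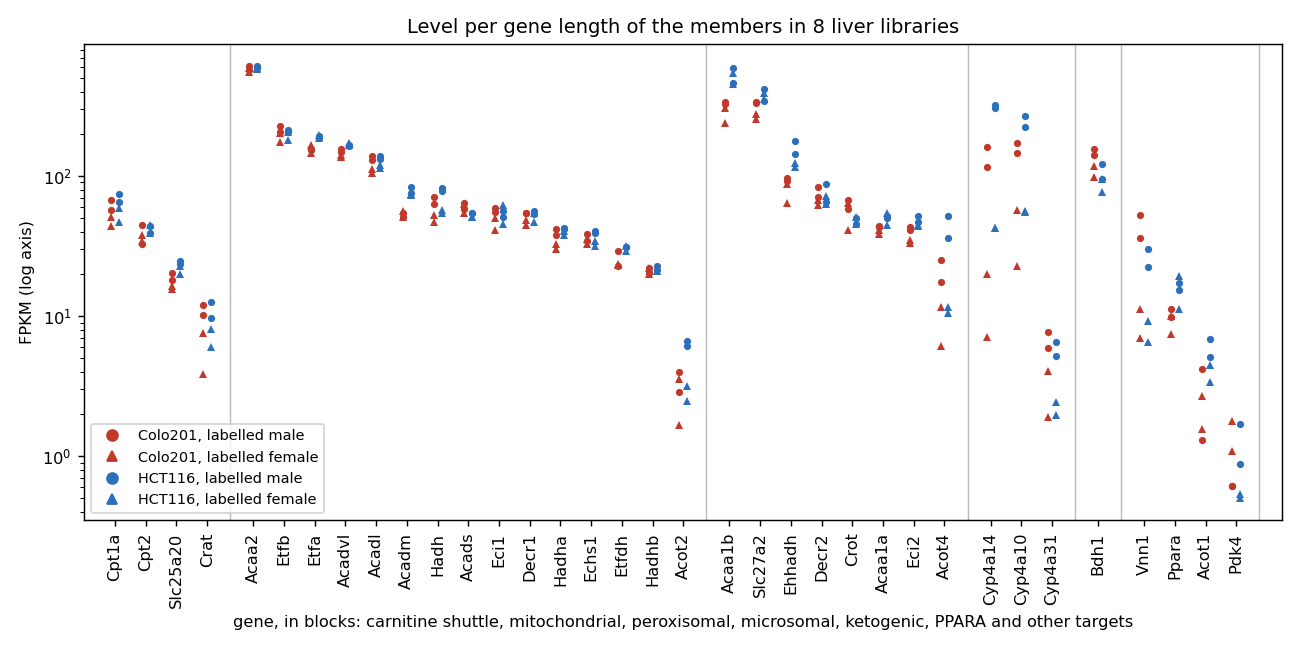
Authors' FPKM (log axis) of each of the 35 members in the 8 libraries, in blocks by role and ordered by mean level within a block. Points are libraries, red for Colo201 and blue for HCT116, circles for libraries labelled male and triangles for those labelled female. Acaa2 lies highest and Pdk4 lowest, and the Cyp4a genes, Acot4 and Vnn1 are spread by sex label.

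The first comparison asked which members differed in the livers of the 2 groups of hosts. Between the lines 4 members were lower in hosts of Colo201 and 0 higher (edgeR quasi-likelihood test over all 17669 genes, sex label as covariate, adjusted p under 0.05). Below, fell and rose mean called lower and higher in hosts of Colo201 than in hosts of HCT116, not a change from a baseline. The 4 were Acadm, a mitochondrial dehydrogenase of medium chain acyl-CoA, Ehhadh and Acaa1b, the bifunctional enzyme and a thiolase of the peroxisome, and Cyp4a14, a microsomal fatty acid omega-hydroxylase. Over all tested genes 2.3% were called lower and 2.48% higher. The other 31 members did not pass, and 16 of the 35 had an unadjusted p under 0.05, as did 21.7% of all tested genes. The fitted log2 ratio of Colo201 over HCT116 hosts was below 0 for 25 of 35 members, with a median of -0.156, against 49.9% of all tested genes and a median of 0.002. DESeq2 called 9 members lower and 1 higher, where it called 6.85% of all genes lower and 6.5% higher.

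**Figure D2:**
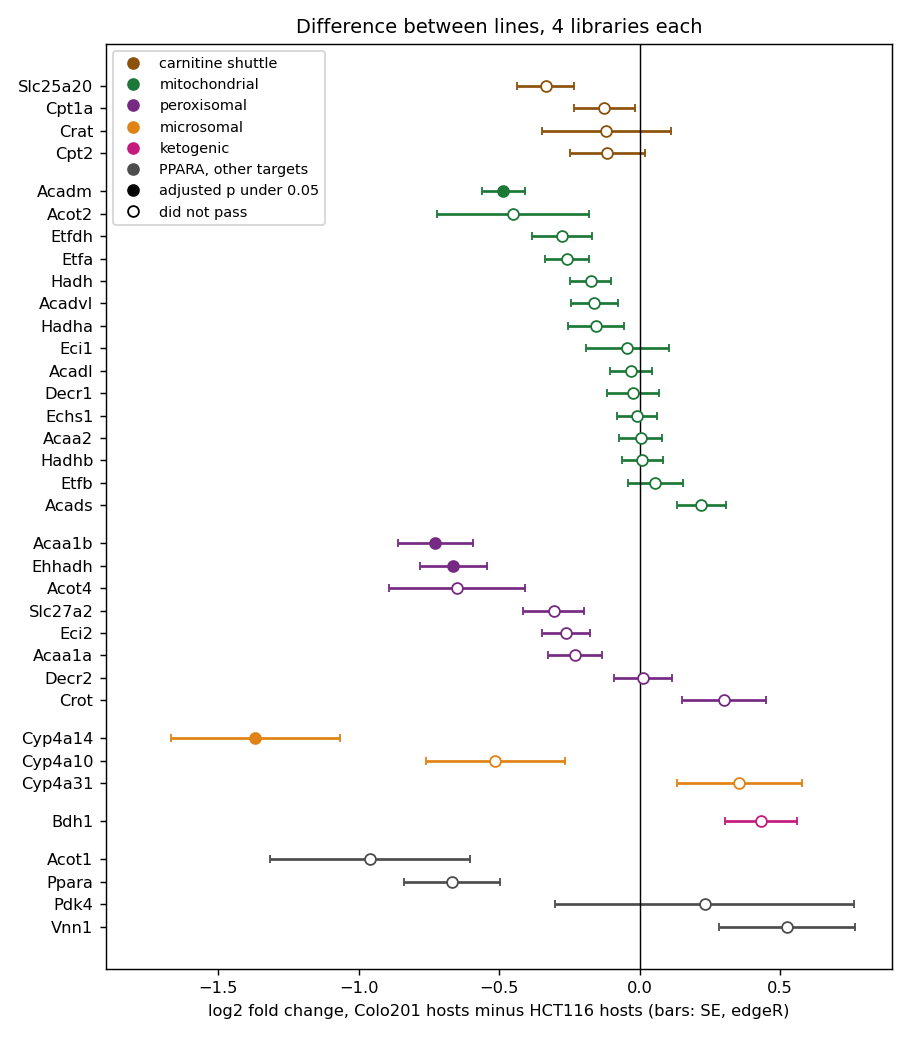
Log2 ratio (log2 fold change) of each member, Colo201 hosts over HCT116 hosts (edgeR, bars are 1 SE, 4 libraries per line), in blocks by role. Filled points passed an adjusted p of 0.05. The 4 filled points, Acadm, Acaa1b, Ehhadh and Cyp4a14, all lie below 0, and Vnn1 and Bdh1 lie farthest above it.

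Of the 15 mitochondrial enzymes of the oxidation cycle, its auxiliary steps and electron transfer, 1 fell, 0 rose and 14 did not pass. Acadm, whose loss causes the most common inherited disorder of fatty acid oxidation in humans, lies at chr3:153922357-153944632 (GRCm38, minus strand). It stood at 232, 229, 225 and 243 CPM in hosts of Colo201 (2L, 2R, 4L, 4R) and at 353, 316, 303 and 329.5 CPM in hosts of HCT116 (1L, 1R, 3L, 3R). All 4 libraries of Colo201 were below all 4 of HCT116, under both sex labels. The mean was 232 ± 7.83 against 325 ± 21.4 CPM, 1.4-fold higher in hosts of HCT116, a log2 ratio of -0.49 (SE 0.08, adjusted p = 0.0167). Etfa, which takes electrons from the acyl-CoA dehydrogenases, was also separated, at 317 ± 17.1 against 379 ± 20.9 CPM, but did not pass (-0.26, SE 0.08, adjusted p = 0.0983). Its partner Etfb had a log2 ratio of 0.06 and Etfdh, which hands the electrons to ubiquinone, of -0.28 (adjusted p = 0.789 and 0.18). Of the 75-base windows of the Etfb transcript 66.3% also occur in Gm45233, and of those of Hadhb 57.19% in Gm13910 and Gm9108, so the values of both are uncertain.

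The other acyl-CoA dehydrogenases did not pass. Acadvl, for very long chains, had a log2 ratio of -0.16 (adjusted p = 0.301), Acadl, for long chains, of -0.03 (adjusted p = 0.852) and Acads, for short chains, of 0.22 (adjusted p = 0.192). Acads was the 1 member with all libraries of Colo201 above those of HCT116, at 137 to 167 against 123 to 134 CPM. The trifunctional protein subunits Hadha (-0.16) and Hadhb (0.01), the hydratase Echs1 (-0.01), the isomerase Eci1 (-0.04), the reductase Decr1 (-0.02) and Acaa2 (0.00) all lay within 0.16 of 0 on the log2 scale and did not pass. Hadh, the short chain hydroxyacyl-CoA dehydrogenase, stood at -0.17 (adjusted p = 0.211) and the thioesterase Acot2 at -0.45 (SE 0.27, adjusted p = 0.381). None of the 4 genes of the carnitine shuttle and its acyltransferases passed. Cpt1a, the rate-setting carnitine palmitoyltransferase of the outer membrane, stood at 592, 471, 434 and 369 CPM in hosts of Colo201 and at 614, 528, 481 and 407 CPM in hosts of HCT116. The ranges overlapped widely, and the log2 ratio was -0.13 (SE 0.11, adjusted p = 0.555). Slc25a20, the carnitine carrier of the inner membrane, had the largest difference of the 4, at -0.33 (SE 0.10, adjusted p = 0.0987). Cpt2 (-0.11) and Crat (-0.12) were closer to 0.

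Of the 8 peroxisomal members 2 fell, 0 rose and 6 did not pass, with 6 below 0 and a median of -0.284. Ehhadh, at chr16:21761287-21787807 on the minus strand, carries the hydratase and dehydrogenase steps. Its levels were 317, 309.6, 294.5 and 212 CPM in hosts of Colo201 and 571, 454, 388 and 388 CPM in hosts of HCT116. The lines did not overlap, and Colo201 4R was lowest and HCT116 1L highest. Means were 283 ± 48.2 and 450.4 ± 86.1 CPM, a log2 ratio of -0.66 (SE 0.12, adjusted p = 0.024).

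Acaa1b, at chr9:119148023-119157093 on the minus strand, catalyses the last step of the same cycle, thiolysis. It stood at 759.7, 685, 670.3 and 520.7 CPM in hosts of Colo201 and at 1254, 960.5, 936 and 1196 CPM in hosts of HCT116. Again no library of Colo201 reached the lowest of HCT116. The means were 659 ± 100.1 and 1087 ± 162 CPM, 1.66-fold higher in hosts of HCT116, with a log2 ratio of -0.73 (SE 0.13, adjusted p = 0.0259). Acaa1a, its paralog on the same chromosome, had a log2 ratio of -0.23 (adjusted p = 0.211). The pair share 27.25% and 28.48% of their transcript windows of 75 bases, so reads could be split between them and both values are uncertain. Among the others Acot4, a succinyl-CoA thioesterase, stood at -0.65 (SE 0.24, adjusted p = 0.164), Slc27a2 at -0.31 (adjusted p = 0.15) and the isomerase Eci2 at -0.26 (adjusted p = 0.122). Crot, which exports shortened chains as carnitine esters, lay above 0 (0.30, SE 0.15, adjusted p = 0.288), and the reductase Decr2 at 0.01.

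The 3 microsomal omega-hydroxylases lie near each other on chromosome 4. Cyp4a14 (chr4:115486200-115496142, minus strand) fell, and Cyp4a10 and Cyp4a31 did not pass. Cyp4a14 stood at 487, 322, 58.5 and 20.3 CPM in hosts of Colo201 (2L, 2R, 4L, 4R) and at 909, 852, 116 and 125 CPM in hosts of HCT116 (1L, 1R, 3L, 3R). The lines overlapped over all 8 libraries, with the libraries labelled male high in both, but within each label both libraries of Colo201 were below both of HCT116. With the label as covariate the log2 ratio was -1.37 (SE 0.30, adjusted p = 0.0416), and without it the adjusted p was 0.604. Cyp4a10 had -0.51 (SE 0.25, adjusted p = 0.272) and Cyp4a31 0.35 (SE 0.22, adjusted p = 0.4). These 2 share 19.07% and 13.92% of their transcript windows with other genes, mainly of the Cyp4a family, and are uncertain, while Cyp4a14 shares 0%.

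Bdh1, the mitochondrial enzyme that converts acetoacetate and hydroxybutyrate into each other, was the 1 ketogenic member. Its levels were 705, 587, 431.5 and 502 CPM in hosts of Colo201 and 398, 502, 317 and 420.2 CPM in hosts of HCT116. Within each label both Colo201 libraries were above both of HCT116, and over all libraries they overlapped. The log2 ratio of 0.43 did not pass (SE 0.13, adjusted p = 0.0966).

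Ppara stood at 49.6, 40.5, 43.4 and 31.7 CPM in hosts of Colo201 and at 71.8, 62.7, 78.3 and 48.6 CPM in hosts of HCT116. Only Colo201 2L and HCT116 3R crossed. The log2 ratio of -0.67 (SE 0.17, adjusted p = 0.0642) did not pass. Acot1, a cytosolic acyl-CoA thioesterase, had 18.9, 5.45, 11.7 and 6.76 CPM in hosts of Colo201 and 28.9, 21.45, 14.05 and 19.8 CPM in hosts of HCT116. This was the second lowest log2 ratio of the members, at -0.96, and it did not pass (SE 0.36, adjusted p = 0.164). Acot1 shares 26.43% of its windows with other Acot genes, and Acot2 shares 21.21%. Vnn1, a pantetheinase, had the highest log2 ratio of the members, at 0.52, and did not pass (SE 0.24, adjusted p = 0.248). Pdk4, the kinase that shuts off pyruvate dehydrogenase, had 0.23 (SE 0.53, adjusted p = 0.845).

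**Figure D3:**
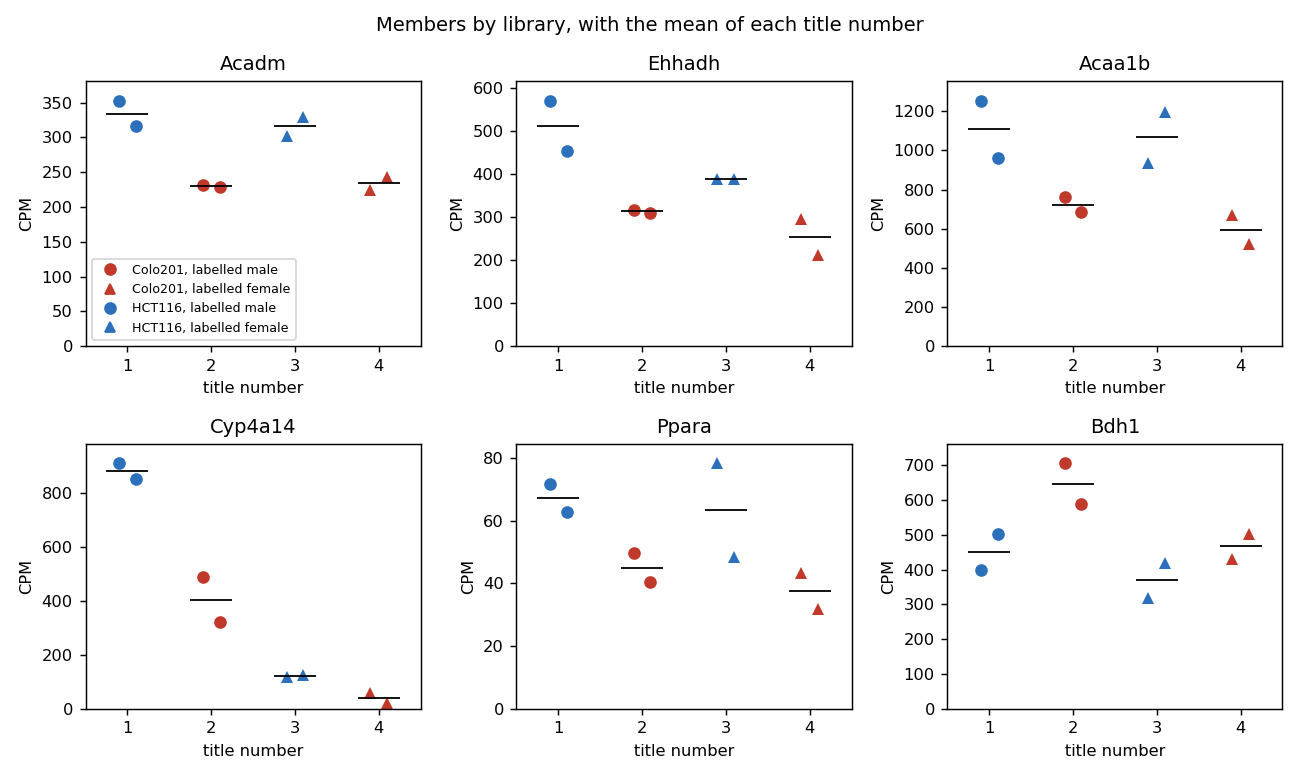
CPM of the 4 members that passed between lines and of Ppara and Bdh1, which did not, by title number (1 and 3 are HCT116, 2 and 4 are Colo201). Points are libraries and lines are the mean of a number, and each axis starts at 0. Acadm, Ehhadh and Acaa1b are lower in both Colo201 numbers than in both HCT116 numbers, and Cyp4a14 is lower within each label.

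The 4 calls all held without Colo201 4R and were not stable when any other library was left out, while the log2 ratios stayed below 0. With 1 library left out 4 members were called lower without Colo201 4R, 2 without Colo201 4L or HCT116 1R, 1 without Colo201 2L, Colo201 2R, HCT116 3L or HCT116 3R and 0 without HCT116 1L. The 2 without Colo201 4L were Ehhadh and Acot4, of which Acot4 did not pass over all libraries. The genes called lower among all tested fell likewise, from 406 to between 93 (without HCT116 3L) and 282 (without Colo201 4R). Over these fits the log2 ratio ranged from -0.44 to -0.52 for Acadm, from -0.58 to -0.78 for Ehhadh, from -0.63 to -0.82 for Acaa1b and from -1.09 to -1.66 for Cyp4a14. Without Colo201 4R they were -0.52, -0.58, -0.64 and -1.09, and that of Ppara was -0.57 (adjusted p = 0.117). Acadm lost its call without Colo201 4L (adjusted p = 0.053) and HCT116 1L (0.0569). Ehhadh kept it without Colo201 4L (0.0236) and 4R (0.0415) and otherwise had adjusted p of 0.0505 to 0.0738. Acaa1b kept it without Colo201 4R (0.0474) and HCT116 1R (0.0357), with 0.0534 to 0.0864 elsewhere. Cyp4a14 kept it without Colo201 4R (0.0179), with 0.0565 to 0.11 elsewhere. With L and R of each number summed, which leaves 4 libraries, none of the 4 passed in edgeR (adjusted p = 0.108 to 0.139), their log2 ratios were -0.49 to -1.37, and over all genes 3 were called lower and 0 higher.

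Over all 8 libraries the lines were separated downwards for 4 members, Acadm, Etfa, Ehhadh and Acaa1b, where 6.04% of all tested genes were, and upwards for Acads, where 6.27% were. Asking for separation only within each sex label, 11 members were lower in hosts of Colo201: Slc25a20, Acadm, Hadh, Etfa, Ehhadh, Acaa1a, Acaa1b, Eci2, Cyp4a14, Ppara and Acot1. The share over all tested genes was 10.7%. Acads and Bdh1 were higher in this way, where 11% of all genes were.

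Markers of other cells were set beside these values. Among the 12 hepatocyte markers 3 were higher in hosts of Colo201 (Apoa1, Trf and Ahsg) and 0 lower, and the summed level of the list was 162200 to 196600 CPM against 132900 to 174000 CPM. Of 9 tested cholangiocyte markers Krt23 and Prom1 were higher, with a sum of 53.4 to 85.8 against 32.2 to 48.4 CPM, highest in Colo201 4R. Of 10 stellate markers Reln was higher, and of 7 tested erythroid markers Tfrc was lower. Tfrc went against most of its list, where 5 of the 7 had log2 ratios above 0, with a median of 0.58. The erythroid sum was 696.5 to 1305 CPM in hosts of Colo201 against 597.1 to 876.3 CPM in hosts of HCT116. None of 11 Kupffer cell and macrophage, 10 endothelial, 5 tested neutrophil or 1 tested adipocyte markers or of 13 mitochondrial mRNAs passed in edgeR (unadjusted p under 0.05 for 0, 1, 0, 0 and 1). Lep and Camp, of the adipocyte and neutrophil lists, were at 0 in all libraries. The part of these cells in the differences of the members was not tested. In whole tissue fewer cells of a type and less RNA per cell cannot be told apart.

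Promoters of the 3 separated members that passed are shown, with the hexamer marked that PPARA binds in repeats. Whether PPARA took part in their difference between lines was not tested. The sequences are the 250 bases before the RefSeq start site in GRCm38.p6, 5′ to 3′ on the strand of the gene, with AGGTCA or its reverse complement TGACCT in capitals.
Acadm, chr3:153944644-153944893, minus strand: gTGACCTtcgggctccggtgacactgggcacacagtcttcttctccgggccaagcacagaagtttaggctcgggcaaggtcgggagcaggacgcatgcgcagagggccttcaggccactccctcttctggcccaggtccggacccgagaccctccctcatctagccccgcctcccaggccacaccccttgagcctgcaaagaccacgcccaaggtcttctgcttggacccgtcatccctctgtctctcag
Ehhadh, chr16:21787835-21788084, minus strand: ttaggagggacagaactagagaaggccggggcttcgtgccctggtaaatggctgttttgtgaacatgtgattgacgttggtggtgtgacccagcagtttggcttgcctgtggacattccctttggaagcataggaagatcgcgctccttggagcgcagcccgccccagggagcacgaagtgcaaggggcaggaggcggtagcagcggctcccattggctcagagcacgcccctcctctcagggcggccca
Acaa1b, chr9:119157094-119157343, minus strand: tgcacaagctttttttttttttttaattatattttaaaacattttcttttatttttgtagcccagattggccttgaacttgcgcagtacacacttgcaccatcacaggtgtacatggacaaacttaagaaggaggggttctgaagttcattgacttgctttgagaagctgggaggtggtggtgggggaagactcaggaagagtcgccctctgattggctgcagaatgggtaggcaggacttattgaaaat
In these letters only Acadm holds the hexamer, on the opposite strand and 249 bases before the start. Promoter windows of 250 bases before to 50 after the start were given for 28 members, with 29 windows, and the hexamer occurred on either strand in 6 of the 29 (Acadm, Acadvl, Acot4, Cpt1a, Echs1 and Slc27a2), against 16.255% of all 32851 windows. The direct repeat AGGTCANAGGTCA occurred in 0 of the 29 and in 0.04% of all windows. Of these 6 genes Acadm was called between the lines. A match is a string of letters and no evidence of binding. The windows of Hadha and Hadhb overlap, since the pair are transcribed away from each other on chromosome 5. Windows of Acaa2, Cyp4a14, Cyp4a31, Cyp4a10, Vnn1, Crat and Decr1 were not used here.

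The difference between lines was then taken within each sex label, title number 2 against 1 and 4 against 3. In libraries labelled male 0 members passed, where 0.232% of all tested genes did, and in those labelled female 0, where 0.492% did (edgeR, 2 libraries against 2). Unadjusted p was under 0.05 for 9 and 11 members, and for 13.1% and 14.1% of all genes. DESeq2 called Acadm, Ehhadh and Acot4 lower in the first, where 2.04% of all genes were, and Acadm, Ehhadh and Acaa1b lower and Pdk4 higher in the second, where 2.2% and 2.03% were. The direction was below 0 under both labels for 20 members, or 57.1%, above 0 under both for 5 and opposite for 10, where 33.3% of all genes were below 0 under both. Acadm had log2 ratios of -0.54 and -0.43 in libraries labelled male and female, Ehhadh of -0.71 and -0.62, Acaa1b of -0.62 and -0.84 and Cyp4a14 of -1.12 and -1.61. Ppara had -0.58 and -0.76. The 4 members called over all libraries and Ppara were below 0 under each label, and none passed there (adjusted p = 0.128 to 0.388, edgeR). Because the 4 were called on these same libraries, their shared direction is no separate support.

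No member passed the test of the difference between the 2 labels (interaction, labelled female minus labelled male), which 0.0283% of all tested genes passed. In edgeR only Pdk4 had an unadjusted p under 0.05, as did 4.1% of all genes. DESeq2 called it (adjusted p = 0.0113), where it called 0.157% of all genes higher. It stood at 2.51, 2.30, 7.01 and 4.21 CPM in hosts of Colo201 (2L, 2R, 4L, 4R) and at 6.47, 3.31, 2.02 and 1.97 CPM in hosts of HCT116 (1L, 1R, 3L, 3R). It was thus lower in hosts of Colo201 in libraries labelled male and higher in those labelled female, with no overlap in either. The interaction was 2.52 (SE 0.53, unadjusted p = 0.00173, adjusted p = 0.777, edgeR).

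**Figure D4:**
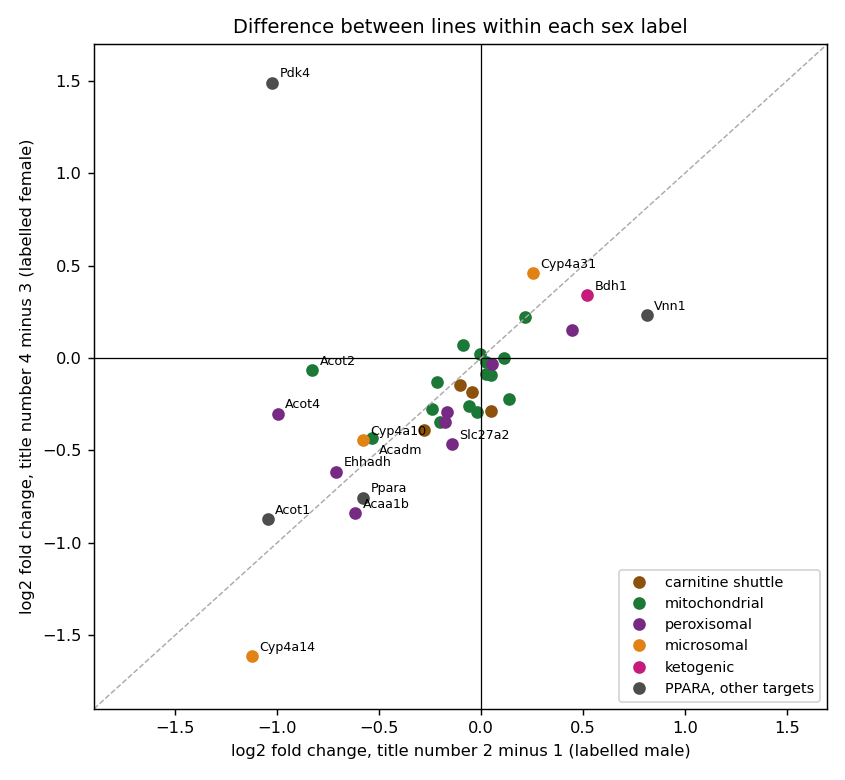
Log2 ratio of each member between lines in libraries labelled male (x axis, title number 2 minus 1) against that in libraries labelled female (y axis, 4 minus 3), coloured by role, with the line of equal values dashed. 20 members lie below 0 on both axes, and Pdk4 lies alone at -1.02 and 1.49.

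Between the sex labels, with line as covariate, 6 members were higher under the label male and 0 lower (edgeR), where 1.96% of all tested genes were higher and 2.06% lower. The libraries labelled male are those with Xist. The 6 were the 3 Cyp4a genes, Vnn1, Acot4 and Hadh, so that all 3 microsomal members passed, with 1 of 8 peroxisomal, 1 of 19 mitochondrial and 1 of the 4 others. Of the 35 members 34 had a log2 ratio, labelled male over labelled female, above 0, with a median of 0.173, against a median of -0.001 over all genes. Etfa was the exception, at -0.03.

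Cyp4a14 was 8.65-fold higher, at 643 ± 284 CPM in the 4 libraries labelled male and 80.04 ± 49.6 CPM in the 4 labelled female (log2 ratio 3.11, SE 0.32, adjusted p = 0.00132). Cyp4a10 stood at 419, 331, 135 and 53.4 CPM in hosts of Colo201 (2L, 2R, 4L, 4R) and at 616, 504, 125 and 132 CPM in hosts of HCT116 (1L, 1R, 3L, 3R). All libraries labelled male were above all labelled female, a log2 ratio of 2.05 (SE 0.26, adjusted p = 0.00396). Cyp4a31, the least abundant of the 3, stood at 17.1, 20.7, 11.3 and 5.28 CPM in hosts of Colo201 and at 17.8, 13.9, 6.49 and 5.59 CPM in hosts of HCT116 (1.29, SE 0.23, adjusted p = 0.0178). Its labels did not overlap either, with Colo201 4L nearest to the libraries labelled male. Cyp4a31 lost its call without Colo201 2R, HCT116 1L, HCT116 3L or HCT116 3R (adjusted p = 0.0571 to 0.0675).

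Vnn1 stood at 146, 93.5, 30.6 and 18.6 CPM in hosts of Colo201 and at 78.4, 57.9, 16.8 and 25.2 CPM in hosts of HCT116. The labels did not overlap, a difference of 1.99 on the log2 scale (SE 0.25, adjusted p = 0.00396). Acot4 stood at 135, 179, 86.6 and 44.9 CPM and at 371, 257, 82.4 and 79.7 CPM in the same order (1.61, SE 0.25, adjusted p = 0.0101). The 2 highest libraries were HCT116 1L and 1R. Hadh had the smallest difference of the 6, at 363, 375, 293 and 259.9 CPM in hosts of Colo201 and 441, 416, 300.0 and 306.5 CPM in hosts of HCT116 (0.46, SE 0.07, adjusted p = 0.0121). It lost its call without HCT116 1L (adjusted p = 0.0548) or HCT116 3L (0.0511).

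**Figure D5:**
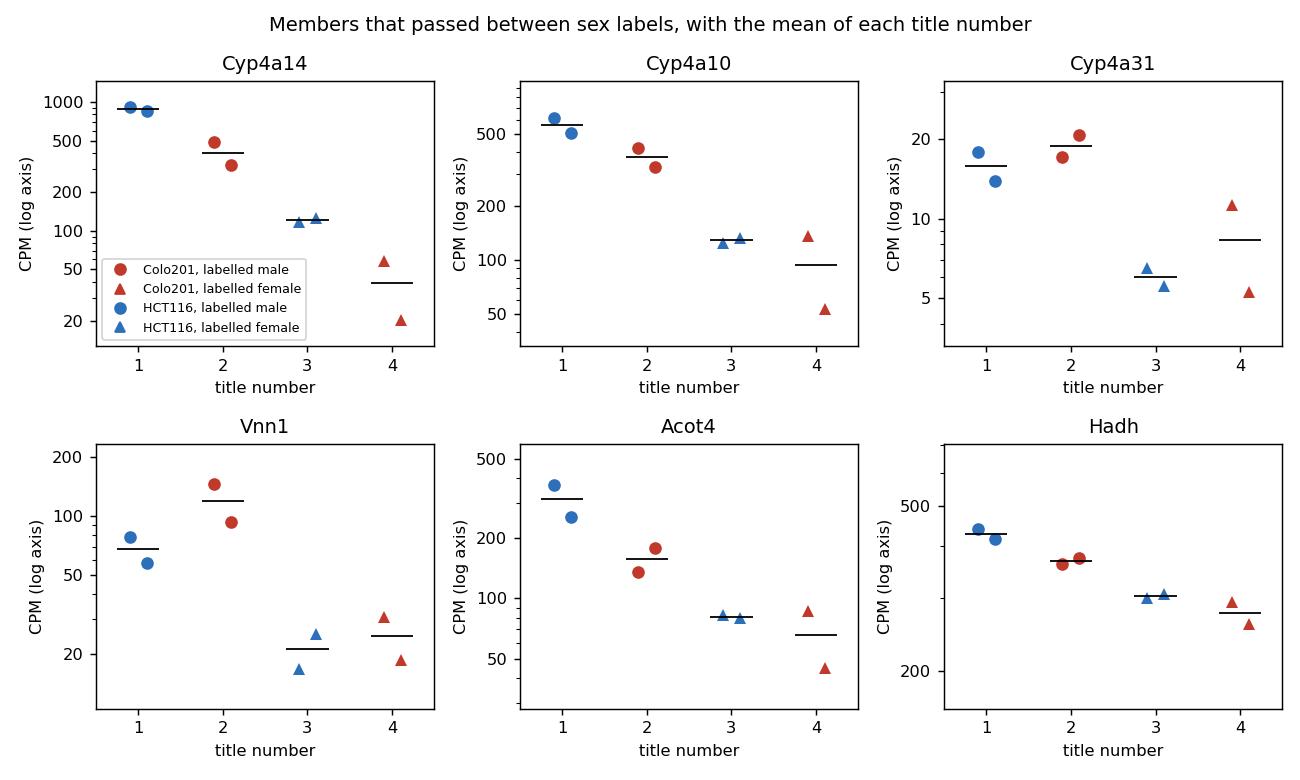
CPM (log axis) of the 6 members that passed between sex labels, by title number. Numbers 1 and 2 are labelled male and 3 and 4 female, blue is HCT116 and red Colo201, points are libraries and lines the mean of a number. In every panel all circles lie above all triangles.

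Labels were fully separated for 9 members, all higher in the libraries labelled male: Crat, Acadl, Hadh, Echs1, Acot4, Cyp4a10, Cyp4a14, Cyp4a31 and Vnn1. This held for 5.06% of all tested genes, and the opposite order for 4.58% and for 0 members. Of the 4 members called between lines Cyp4a14 also passed between labels, and Acadm, with a log2 ratio of 0.03 (adjusted p = 0.89), Ehhadh (0.35, adjusted p = 0.15) and Acaa1b (0.17, adjusted p = 0.571) did not. Markers of other cells moved with the label too. All 11 Kupffer cell and macrophage markers and all 10 endothelial markers had log2 ratios above 0 in the same direction, labelled male over labelled female, with 2 and 4 called higher and none lower. The summed Kupffer list stood at 499 to 629 against 218 to 419.6 CPM, the endothelial list at 381 to 451 against 243 to 333 CPM and the neutrophil list at 3.67 to 5.99 against 1.36 to 2.87 CPM. The hepatocyte list stood at 165800 to 196600 against 132900 to 162800 CPM. Its 12 markers did not share 1 direction, with 6 above and 6 below 0, a median log2 ratio of 0.012, 2 called higher and 1 lower. The part of these cells in the members' differences between labels was not tested.

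Beyond the 35 members, 134 other genes of the same pathways were listed and 126 tested. Between the lines 11 were lower in hosts of Colo201, 1 was higher and 114 did not pass in edgeR, with a median log2 ratio of -0.041. Over all tested genes 2.3% were lower and 2.48% higher, with a median of 0.002, which is the background for the lists below too. Of 37 tested peroxisomal genes 2 fell. One was Pex11a, a PPARA target that makes peroxisomes divide, which stood at 53.2 ± 8.93 against 99.0 ± 19.8 CPM (-0.89, SE 0.11, adjusted p = 0.00666).

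Of 25 tested mitochondrial genes 3 fell, the thioesterase Acot13 (-0.49, adjusted p = 0.0322) and the medium chain acyl-CoA synthetases Acsm1 (-0.50, adjusted p = 0.0284) and Acsm5 (-0.79, adjusted p = 0.00887). Acsl1, the main long chain acyl-CoA synthetase, ranged from 267 to 538 CPM in hosts of Colo201 and from 458 to 1088 CPM in hosts of HCT116 and did not pass (-0.68, SE 0.31, adjusted p = 0.24). Of 12 microsomal genes Aldh3a2, which oxidises fatty aldehydes, fell (-0.68, SE 0.13, adjusted p = 0.0294). None of 9 other ketone body genes passed in edgeR, with 2 at an unadjusted p under 0.05, as were 21.7% of all tested genes.

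Of 43 tested regulators and other PPARA targets 5 fell and 1 rose. Pparg, the related receptor of fat storage, stood at 3.67 ± 1.83 CPM in hosts of Colo201 against 10.95 ± 1.9 CPM in hosts of HCT116 (-1.70, SE 0.19, adjusted p = 0.00561). Gk, glycerol kinase, fell by 0.73 (adjusted p = 0.00826) and Lpin2, a phosphatidate phosphatase, by 0.83 (adjusted p = 0.0174) on the log2 scale. Sirt1 and Plin4 also fell. Plin2, a coat protein of lipid droplets, was the 1 that rose, at 549.5 ± 142 CPM in hosts of Colo201 against 251 ± 25.4 CPM in hosts of HCT116 (1.13, SE 0.16, adjusted p = 0.0118). Fgf21, a PPARA target secreted in fasting, had 0.53 (SE 0.73, adjusted p = 0.729) at 1.79 ± 1.52 and 1.24 ± 1.07 CPM. Rxra, the partner of PPARA, had -0.04 (adjusted p = 0.799) and the coactivator Ppargc1a -0.29 (adjusted p = 0.546). DESeq2 called 18 of the 126 lower and 6 higher, against its 6.85% and 6.5% of all genes.

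Between the sex labels the same 126 genes went in both directions, 13 being lower under the label male and 8 higher (edgeR). Over all tested genes 2.06% were lower and 1.96% higher. Of the 12 other microsomal genes 1 was higher and 4 lower, while all 3 microsomal members were higher. Cyp4a12a, a male-biased omega-hydroxylase of the same family, had 0.356 to 0.698 CPM where the label is male and 272 to 695 CPM where it is female (log2 ratio -9.62, SE 0.38, adjusted p = 6.78e-06). The Cyp4a genes therefore did not share 1 direction between labels.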

How the data were processed

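Polyadenylated liver RNA of 8 libraries was measured, 4 per xenograft line and 2 per line and sex label. Per the labels' protocols, the kit for sequencing was a stranded one for mRNA, after TRIzol extraction. The tools named by the submitters' processing notes are HISAT2 and StringTie, with the build GRCm38 (mm10). Their versions, the annotation and whether counting used strand were not given in the sources used here, and reads of genes that overlap may be mixed. The deposited tables of the authors hold whole-number estimated counts and FPKM per gene. Multiples of 4 made up 43.85 to 45.04% of the counts from 1 to 16, against 25% if evenly spread, and no source states why. FPKM are the authors' values per length and depth and were used for levels and in alternatives. Of 55401 identifiers 55141 matched a symbol of GENCODE vM21; the 260 others held 0.0216 to 0.0343% of the counts. Promoter sequences came from RefSeq (GRCm38.p6).

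Counts were filtered with filterByExpr, scaled by TMM and tested with edgeR 4.0.16 (R 4.3.3; glmQLFit, glmQLFTest), two-sided, with Benjamini-Hochberg adjustment over 17669 genes and a threshold of 0.05. The additive fit of line and sex label had 5 residual degrees of freedom and the fit of 4 means, for contrasts within labels and the interaction, had 4. Each SE is the log2 ratio divided by the square root of F. CPM of genes are TMM-scaled; sums of marker lists use library totals. No 2 libraries were duplicates: a chi-square per gene, over counts divided by 4, was at least 15.78 in the 28 pairs, 15.78 to 31.86 in the 4 pairs of a title number and 40.65 to 123.09 in the others. The members and gene lists were chosen with earlier results of these data known.

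Values in every library are given for members that passed any contrast, for Ppara, Cpt1a, Pdk4, Bdh1 and Cyp4a14, and for the 3 highest and 3 lowest log2 ratios between lines; of the other pathway genes, up to 4 passing genes per list with the smallest p are named, and Acsl1, Fgf21, Rxra and Ppargc1a whatever their result. Some other genes are not reported here. Sirt1, Plin4, Cyp4a12a, Krt19, Epcam, Cldn7 and the members outside this rule were named after their values were seen. Alternatives were other scalings and filters, DESeq2 1.42.0, limma 3.58.1 (voom, or log2 of FPKM plus 1 or 0.1), counts divided by 4, no covariate, libraries of a title number summed, the 20 most abundant genes left out and each library left out in turn. A filter by line was added after seeing the data.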

Additional observations from a re-analysis of the deposited data

Results flagged for a closer look

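For 2 members every library of Colo201 lay on opposite sides of those of HCT116 under the 2 sex labels. The share of all tested genes with this order was not counted, so 2 of 35 cannot be read as particular to the members. Pdk4 had an interaction of 2.52 on the log2 scale (adjusted p = 0.777 in edgeR, 0.0113 in DESeq2), with 2.30 to 2.51 against 3.31 to 6.47 CPM in libraries labelled male and 4.21 to 7.01 against 1.97 to 2.02 CPM in those labelled female. Echs1 had one of 0.16 (unadjusted p = 0.292), with 329 and 339 against 364 and 346 CPM in libraries labelled male and 304.5 and 323 against 303 and 295 CPM in those labelled female. Neither passed the test of the difference in edgeR. In the 70 groups of 4 libraries tested for an outlying library (35 members in 2 lines) 0 had one by Dixon's test.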

How the results depend on the processing

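The 4 members called lower between the lines stayed below 0 under every alternative run, and their number changed. It was 9 by DESeq2, 7 by limma on log2(FPKM + 1), 1 by limma on log2(FPKM + 0.1), 1 with no covariate and 0 with libraries of a title number summed, and it ranged from 0 to 4 with 1 library left out. Over all genes the number called lower, 406, moved in the same direction, to 1023, 468, 141, 67, 3 and 93 to 282. The number of members was 4 or 5 with the other scalings, filters, limma voom, counts divided by 4 and without the 20 most abundant genes. Under these settings the number called lower over all genes ranged from 288 of 25696 (no filter on low counts) to 544 of 14262 (counts divided by 4). DESeq2 called 1 member higher between lines (Bdh1), 3 lower in libraries labelled male, 3 lower and 1 higher in those labelled female, 1 higher for the interaction, and 18 lower and 6 higher of the other pathway genes. Leaving out 1 library gave 0 to 1 member lower in libraries labelled female, the 1 being Cyp4a14 without Colo201 4L (adjusted p = 0.0352), where Colo201 4R alone is left and is assumed to vary like the other groups. Between sex labels 6 members were called by edgeR, 8 by DESeq2 and 4 to 7 with 1 library left out, all higher under the label male. Among all 17669 tested genes 346 were called higher under that label by edgeR and 797 by DESeq2. With 1 library left out this number was 148 (without HCT116 1L) to 303 (without Colo201 2L). Slc25a20 passed with library totals only (adjusted p = 0.0473) and Ppara with counts divided by 4 (adjusted p = 0.0491). Without Colo201 4L Acot4 passed between lines (adjusted p = 0.0409) and Acot2 between sex labels (adjusted p = 0.0164). The cause of these changes was not tested. No gene's direction reversed among called values. No paired analysis was possible because the lines share no title number. If 1 fragment is 4 counts it is worth 0.0611 to 0.0652 CPM, so Pdk4, at 1.97 to 7.01 CPM, rests on the fewest fragments of the members.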
